A study of Mus musculus with 6 samples.

Results

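The 45 genes described here encode the acid hydrolases of the lysosome, their activators, proteins of the lysosomal membrane and the transcription factors that control them, and each was read by its symbol from a table of 54532 mouse genes. Expression was measured by RNA sequencing in cardiosphere-derived cells (CDCs), progenitor-like cells that grow out of heart tissue, here from the epicardium of the ventricle of adult C57BL/6 mice. All 6 libraries came from 1 line immortalised with a lentiviral telomerase (hTERT) transgene under puromycin selection, at passage 30. The 3 control libraries came from the immortalised CDCs without the drug. The 3 induced libraries came from the same CDCs after 10 µM 5-azacytidine, a cytidine analogue that blocks DNA methylation, for 3 days, followed by 4 weeks in medium with 2% serum. The comparison therefore asked how lysosomal genes differed after a treatment used to start cardiac differentiation, and drug, low serum and time in culture cannot be told apart in it. Labels and published methods disagree on the later medium and on how long it was used, and the medium of the sequenced control cells was not stated.

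Lysosomes are acidic compartments in which proteins, glycans, glycosaminoglycans and lipids are broken down by hydrolases that work best at low pH. Most soluble hydrolases are made as precursors, tagged with mannose 6-phosphate in the Golgi apparatus and delivered by receptors, while a proton pump (the V-ATPase) keeps the lumen acidic. The transcription factors TFEB, TFE3 and MITF bind E-boxes of the type CACGTG near many of these genes, and their activity is set largely by phosphorylation and their place in the cell when nutrients are scarce. In the heart, loss of single lysosomal enzymes is known from storage diseases that affect muscle and valves.

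Libraries held 19041133 to 19823369 reads counted to genes, and 19591 to 20501 genes had at least 1 read. Of the epicardial and CDC markers, all 7 (Eng, Thy1, Ly6a, Tbx18, Upk3b, Wt1 and Tcf21) were measured in both groups, with a summed level of 851 to 863 CPM in control and 1584 to 1739 CPM in induced libraries. Most of that difference came from Upk3b (254 to 942 CPM). Thy1 (113 to 164 CPM), Wt1 (19.6 to 49.7 CPM) and Tcf21 (14.4 to 40.3 CPM) also rose, and Eng rose slightly (360.3 to 393 CPM). Tbx18 (63.7 to 50.7 CPM) and Ly6a (31.6 to 21.4 CPM) fell. CPM are counts scaled to a common library size with TMM factors, and are not corrected for gene length. Of 14246 genes tested, 64.8% changed at an edgeR adjusted p of 0.05, of which 4643 rose (32.6% of those tested) and 4582 fell (32.2%), with a median log2 fold change over all tested genes of -0.01. The counts of lysosomal genes given here are to be read against that high background.

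Most lysosomal genes were higher in induced cells, by moderate amounts. Of the 45 genes 44 passed the filter on low counts, and 36 of these rose, 2 fell (legumain, Lgmn, and cathepsin C, Ctsc) and 6 did not pass the threshold (Gusb, Cln3, Gla, Glb1, Mitf and Tfe3). The median log2 fold change over the 44 was 0.59, with a range from -0.49 for Ctsc to 1.45 for Naglu. Of the 44, 11 rose at least 2-fold, against 9.29% of all genes tested, and none fell 2-fold. The 3 induced libraries all lay above the 3 control libraries for 36 of the 44 genes, against 34.1% of all genes tested, and all lay below them for 4 (Lgmn, Ctsc, Glb1 and Tfe3), against 34.5% of all genes tested. Among the 38 that changed, 15 did so by less than 1.5-fold. In bulk samples such as these, fewer cells of a type and less RNA per cell cannot be told apart.

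The summed level of the 45 genes was 11818, 11651 and 11908 CPM in control libraries and 17933, 17249 and 17550.1 CPM in induced libraries. The induced sum was 1.49 times the control sum, given as a description with no test. As a share of all counted reads, these genes took 1.18 to 1.20% in control and 1.72 to 1.76% in induced libraries, so the groups did not overlap.

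**Figure D1:**
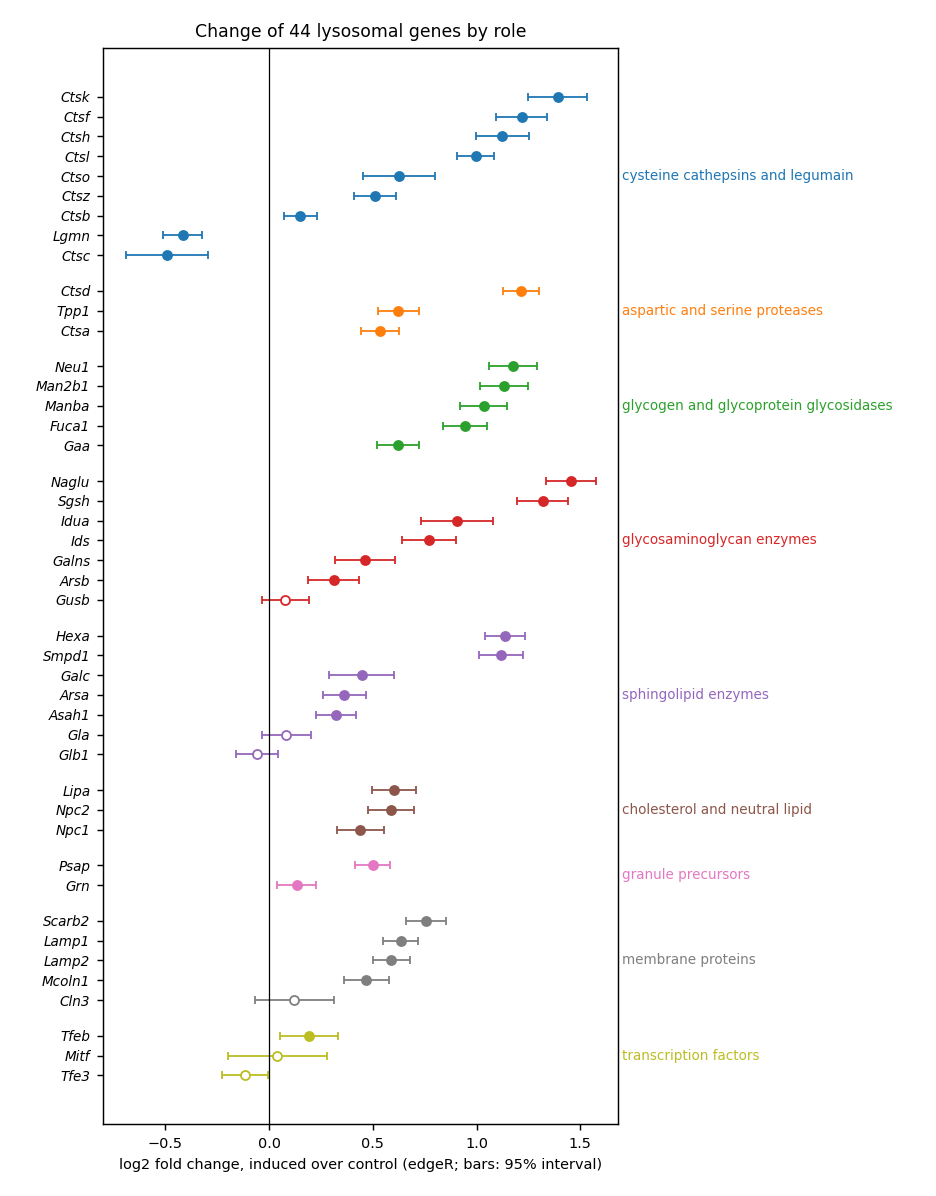
Log2 fold change (x axis, induced over control) of the 44 tested lysosomal genes, grouped by role (y axis). Points are edgeR estimates and bars are 95% intervals; filled points passed an adjusted p of 0.05. Points to the right of 0 outnumber those to the left, the transcription factors lie close to 0, and Lgmn and Ctsc are the filled points on the left.

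The 3 transcription factors of the lysosomal programme moved little in comparison with the enzymes. Tfeb, the best studied of them, was at 31.1, 33.1 and 34.3 CPM in control libraries and 39.7, 36.2 and 36.6 CPM in induced libraries. Each induced library lay above each control library, and the log2 fold change of Tfeb was 0.19 (adjusted p = 0.0170 by edgeR). This small rise did not pass the threshold when control replicate 1 or induced replicate 1 was left out (edgeR adjusted p 0.0867 and 0.0757; range over all alternatives 0.00420 to 0.0867). Tfe3, its close relative, was at 74.6, 80.3 and 74.8 CPM in control and 71.7, 70.3 and 70.2 CPM in induced libraries. Its induced libraries all lay below the control libraries, but the difference of -0.11 did not pass the threshold (edgeR adjusted p = 0.0672, 95% interval -0.23 to -0.00). Mitf, which also drives pigment cell genes, was low in both groups, at 10.8, 8.82 and 10.5 CPM in control and 9.83, 10.3 and 10.8 CPM in induced libraries. Its groups overlapped, with a log2 fold change of 0.04 (edgeR adjusted p = 0.770, 95% interval -0.20 to 0.28). Per length, all 3 were in the lower part of the order of the 45 genes, at places 32, 38 and 43: in control cells Tfe3 had 8.19 ± 0.327 FPKM, Tfeb 5.73 ± 0.291 FPKM and Mitf 1.60 ± 0.172 FPKM (deposited values scaled to gene length and depth, mean ± SD, n = 3). Transcript levels say nothing of the phosphorylation or location of these factors, which were not measured.

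The E-box to which these factors bind was looked for in the RefSeq promoters of GRCm38.p6, each from 250 bases before to 50 bases after an annotated start. Of the 45 genes, 40 were in that table, and 14 of these (35%) held CACGTG, a palindrome that reads the same on both strands. The share was 8.09% among all 27025 genes with a promoter there and 11.7% among the tested genes that could be matched. The longer form GTCACGTG, searched on both strands and containing CACGTG, was in 11 of the 40 (27.5%) against 2.55% of all genes and 4.79% of tested genes. The palindrome TCACGTGA, which also contains it, was in 5 (12.5%) against 1.13% of all genes and 2.16% of tested genes. Lysosomal genes outside the 45 held CACGTG in 1 of 17 matched hydrolases and activators (5.88%), 4 of 22 membrane proteins (18.2%) and 4 of 14 V-ATPase subunits (28.6%). CACGTG was present in 4 of 10 genes that rose at least 2-fold, in 6 of 21 that rose by less and in 4 of 9 others. These others include Ctss, which was too low to test. Some genes had more than 1 promoter, and per promoter CACGTG was in 4 of 10 (40%), 6 of 25 (24%) and 4 of 14 (28.6%). Windows around the motif are shown first for genes that rose, then for genes that did not, so that the match can be seen in both kinds. Capitals mark CACGTG, each window is read 5′ to 3′ on the strand of the gene, and a match is a description of sequence, not a binding site.
Naglu (chr11:101070006-101070041, plus strand): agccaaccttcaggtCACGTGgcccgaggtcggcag
Sgsh (chr11:119355519-119355554, minus strand): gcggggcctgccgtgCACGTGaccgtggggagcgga
Ctsd (chr7:142387905-142387940, minus strand): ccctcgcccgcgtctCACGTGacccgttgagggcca
Ctsf (chr19:4855071-4855106, plus strand): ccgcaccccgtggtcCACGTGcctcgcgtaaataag
Ctsl (chr13:64370736-64370770, minus strand): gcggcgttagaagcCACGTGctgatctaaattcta
Lamp1 (chr8:13159118-13159153, plus strand): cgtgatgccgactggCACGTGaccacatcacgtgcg
Mcoln1 (chr8:3500459-3500494, plus strand): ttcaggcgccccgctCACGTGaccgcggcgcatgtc
Glb1 (chr9:114401015-114401050, plus strand): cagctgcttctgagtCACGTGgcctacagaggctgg
Gla (chrX:134601179-134601214, minus strand): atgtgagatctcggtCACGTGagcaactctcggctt
Cln3 (chr7:126583337-126583372, minus strand): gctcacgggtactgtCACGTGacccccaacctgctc
Lgmn (chr12:102439121-102439156, minus strand): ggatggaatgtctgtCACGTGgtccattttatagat

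In Naglu, Ctsd and Sgsh, which rose at least 2-fold, the motif shown lay 73, 98 and 29 bases before the start as part of GTCACGTG, and in Ctsf, which did so too, 79 bases before it without the longer form. In Glb1 and Lgmn, which did not rise, it lay 48 and 49 bases before an annotated start, also as part of GTCACGTG. Lgmn and Cln3 each had 2 annotated promoters, and only 1 of each held CACGTG. Lamp1 held 4 copies of CACGTG within the promoter, at 61, 45, 28 and 15 bases before the start.

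Among the cysteine cathepsins and legumain, proteases that cut proteins in the lysosome and partly outside the cell, 7 of 9 tested genes rose and 2 fell, with a median log2 fold change of 0.63. Ctsk, a collagen-degrading cathepsin best known from osteoclasts, was at 35.4, 29.6 and 32.2 CPM in control and 78.9, 86.2 and 89.7 CPM in induced libraries. The lowest induced library was more than double the highest control library, and Ctsk rose by 1.39 ± 0.07 (log2 fold change ± SE, edgeR adjusted p = 2.86e-12). Ctsf, a papain-like protease, went from 43.2, 45.8 and 46.7 CPM in control libraries to 109, 98.4 and 108 CPM in induced libraries, a rise of 1.22 ± 0.06 (edgeR adjusted p = 2.07e-12). Ctsh, which acts mainly as an aminopeptidase, was at 39.98, 39.3 and 36.7 CPM in control and 81.9, 80.5 and 90.4 CPM in induced libraries. All induced libraries again stood above all control libraries, with a rise of 1.12 ± 0.06 (edgeR adjusted p = 1.04e-11).

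Ctsl, a broad endopeptidase and one of the more abundant members, was at 711, 686 and 715 CPM in control and 1367, 1392 and 1451 CPM in induced libraries. The groups were far apart and the rise was 1.00 ± 0.04 (edgeR adjusted p = 3.22e-13). Gene models without a read in any library overlap 26.8% of its exon bases. Ctsz, a carboxypeptidase, was the second most abundant lysosomal transcript per length in control cells, and its libraries held 476, 482 and 499 CPM in control and 728, 647 and 697 CPM in induced cells. It rose by 0.51 ± 0.05 (edgeR adjusted p = 3.18e-08), with induced library 2 the lowest of the induced values but still above the control values. Ctso, a little studied member, rose by 0.63 from 16.5 ± 1.26 to 25.5 ± 1.13 CPM. Ctsb, an endopeptidase and exopeptidase, started high at 1888 ± 24.3 CPM and ended at 2096 ± 49.8 CPM, and it passed the test with a small rise of 0.15 (edgeR adjusted p = 0.00211). Of its exon bases 12.8% are shared with Fdft1 on the opposite strand, which fell from 165 to 112 CPM.

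Lgmn and Ctsc went the other way. Lgmn, an asparaginyl endopeptidase that matures several cathepsins, was at 392, 376 and 378 CPM in control libraries and 289, 289 and 281 CPM in induced libraries. No induced library reached the lowest control library, and Lgmn fell by 0.42 ± 0.04 (log2, edgeR adjusted p = 1.42e-07). Ctsc, a dipeptidyl peptidase that activates serine proteases of immune cells, was at 20.02, 21.3 and 20.1 CPM in control and 12.6, 16.04 and 15.1 CPM in induced libraries. It fell by 0.49 ± 0.09 (edgeR adjusted p = 1.72e-04), with induced library 1 the lowest. Ctss, the cathepsin of antigen-presenting cells, had 0 reads in all control libraries and 5 reads over the induced libraries (0, 0.105 and 0.157 CPM). A count of 0 allows up to 0.150 to 0.159 CPM in these libraries, so no difference was detectable at this depth. Summed per length, cathepsins and legumain went from 972 ± 14.4 to 1299 ± 37.6 FPKM, a ratio of 1.34, also given with no test.

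**Figure D2:**
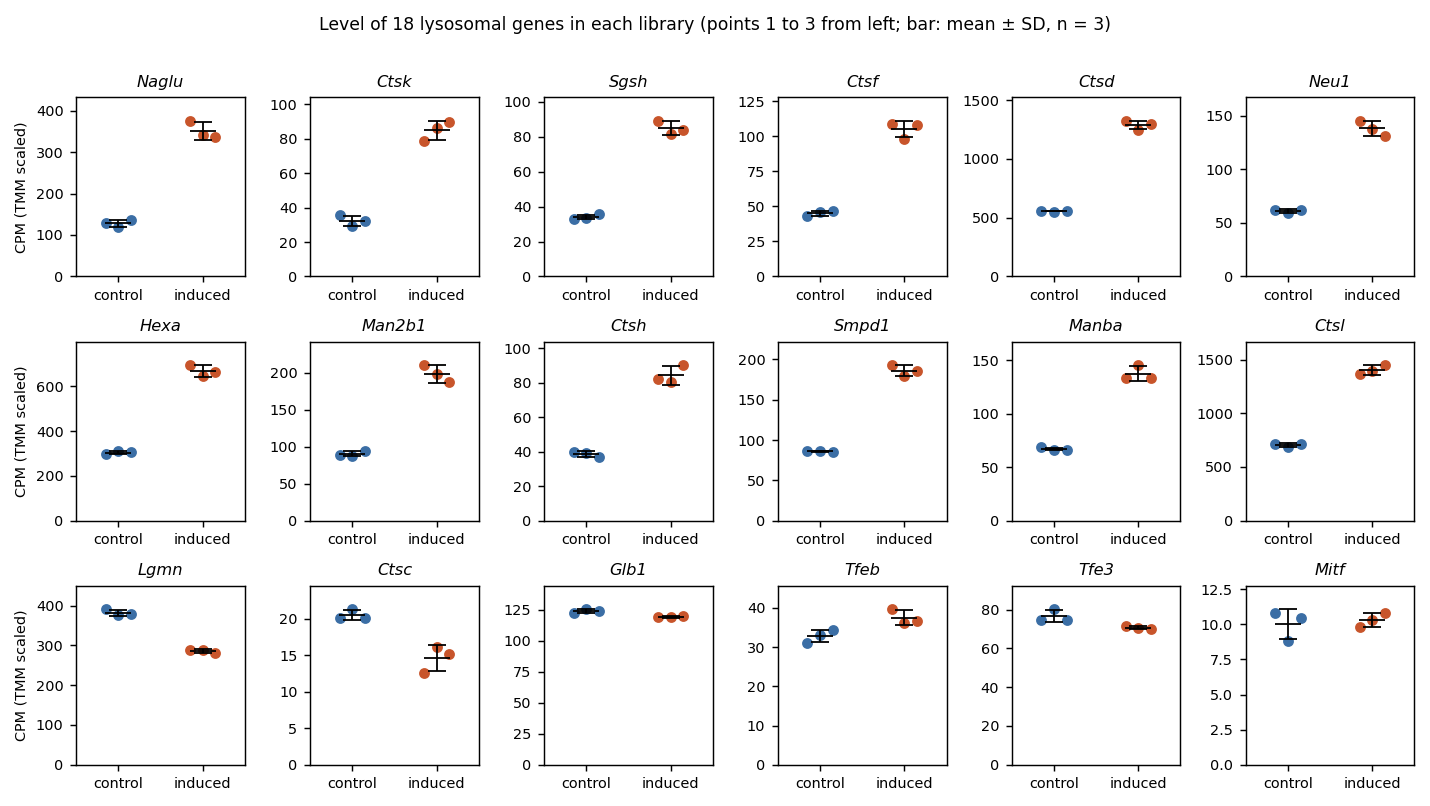
Level of 18 lysosomal genes in each library in TMM-scaled CPM (y axes, each from 0) for control and induced cells (x axis), with bars for the mean ± SD of 3 libraries. The panels show the 12 genes with the largest changes, then Lgmn, Ctsc, Glb1 and the 3 transcription factors; the groups are far apart in the upper panels and overlap only for Mitf.

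The aspartic and serine proteases all rose. Ctsd, the main aspartic protease of the lysosome, was at 559, 553 and 556 CPM in control libraries and 1319.8, 1250.1 and 1297 CPM in induced libraries. Values within each group lay close together, and Ctsd rose by 1.21 ± 0.04 (edgeR adjusted p = 1.63e-14), the smallest p among the 45 genes. Of its exon bases 34.4% are also annotated to Gm49369 on the same strand, which had 0 reads in every library. Tpp1, which takes tripeptides from the ends of proteins, rose by 0.62 from 246 ± 5.69 to 379 ± 13.3 CPM. Ctsa, a carboxypeptidase that also protects other glycosidases from breakdown, rose by 0.54 from 545 ± 9.98 to 790.1 ± 31.3 CPM. Ctsa shares 17.4% of its exon bases with Pltp and Neurl2 on the opposite strand, of which Pltp rose from 45.5 to 116 CPM and Neurl2 fell from 13.6 to 8.86 CPM.

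The enzymes that strip sugars from glycogen and glycoproteins had the highest median of the roles, 1.03, and all 5 rose. Neu1, the sialidase that removes terminal sialic acid, was at 62.5, 59.4 and 62.1 CPM in control and 146, 138 and 132 CPM in induced libraries. It rose by 1.17 ± 0.05 (edgeR adjusted p = 1.48e-12), and the lowest induced value was more than double the highest control value. Man2b1, an alpha-mannosidase, was at 89.2, 87.9 and 93.9 CPM in control and 210.5, 198 and 187 CPM in induced libraries, a rise of 1.13 ± 0.05 (edgeR adjusted p = 2.38e-12). Manba, the beta-mannosidase, was at 68.7, 66.5 and 66.4 CPM in control libraries against 134, 146 and 133 CPM in induced ones, and rose by 1.03 ± 0.05 (edgeR adjusted p = 7.47e-12). Neither mannosidase overlapped between groups. Fuca1, which removes fucose, rose by 0.95 from 84.3 ± 1.27 to 162 ± 6.31 CPM. Gaa, the acid alpha-glucosidase that degrades glycogen and whose loss causes a storage disease of heart and muscle, rose by 0.62 from 589 ± 12.9 to 907 ± 54.7 CPM.

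Of the 7 enzymes that degrade glycosaminoglycans, 6 rose, and the list was led by a pair of heparan sulfate enzymes. Naglu, which removes N-acetylglucosamine from heparan sulfate, was at 129, 119 and 136 CPM in control and 375, 341 and 337 CPM in induced libraries. This was the largest rise among the 45 genes, at 1.45 ± 0.06 or 2.74-fold (edgeR adjusted p = 1.54e-13), a percentile of 93.8 among all genes tested. Sgsh, the sulfatase of the same pathway, was at 32.9, 33.5 and 35.5 CPM in control and 89.1, 81.3 and 83.9 CPM in induced libraries. It rose by 1.32 ± 0.06 (edgeR adjusted p = 5.35e-13) with groups far apart, and 21.6% of its exon bases are shared with Card14 on the opposite strand, which rose from 0.472 to 1.78 CPM. Idua and Ids, which remove iduronic acid and its sulfate from heparan and dermatan sulfate, rose by 0.90 (16.5 ± 0.319 to 30.9 ± 2.83 CPM) and 0.77 (42.1 ± 1.73 to 71.8 ± 5.12 CPM). Galns, a sulfatase for keratan and chondroitin sulfate, rose by 0.46 (27.5 ± 1.24 to 37.9 ± 2.39 CPM). Arsb, a sulfatase for dermatan sulfate, rose by 0.31 (47.3 ± 2.87 to 58.8 ± 1.92 CPM), and genes on the opposite strand overlap 39.9% of the Arsb exon bases. Gusb, the beta-glucuronidase often used as a reference gene, overlapped between groups, at 109, 114 and 117 CPM in control and 127, 118 and 114 CPM in induced libraries (a log2 difference of 0.08, edgeR adjusted p = 0.217, 95% interval -0.04 to 0.19).

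The sphingolipid enzymes were split. Hexa, the alpha subunit of the beta-hexosaminidase that degrades GM2 ganglioside, was at 295, 311 and 305 CPM in control and 695, 644 and 664 CPM in induced libraries. It rose by 1.14 ± 0.05 (edgeR adjusted p = 1.62e-13); 12.8% of its exon bases are shared with Tmem202 on the opposite strand, which rose from 1.01 to 2.98 CPM. Smpd1, the acid sphingomyelinase, was at 86.2, 86.3 and 84.9 CPM in control and 193, 179 and 186 CPM in induced libraries. It too showed no overlap, with a rise of 1.12 ± 0.05 (edgeR adjusted p = 7.95e-13). Smaller rises were measured for Galc, which degrades galactosylceramide (0.45, 22.1 ± 1.496 to 30.1 ± 0.854 CPM), for Arsa, the sulfatase of sulfatide (0.36, 132 ± 2.38 to 169 ± 6.07 CPM), and for Asah1, the acid ceramidase (0.32, 251 ± 2.46 to 314 ± 10.1 CPM). Of the exon bases of Arsa, 18.8% are shared with a gene on the opposite strand.

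Gla and Glb1, which also remove galactose from glycolipids, did not pass the threshold, unlike Galc. Gla, the alpha-galactosidase whose loss causes Fabry disease of heart and kidney, was at 71.1, 64.2 and 64.6 CPM in control and 71.4, 69.5 and 70.9 CPM in induced libraries. Its groups overlapped, with a log2 fold change of 0.08 (edgeR adjusted p = 0.196, 95% interval -0.03 to 0.20). Glb1, the beta-galactosidase measured in the common staining for senescent cells, was at 122, 125 and 124 CPM in control and 119, 119 and 119.8 CPM in induced libraries. All its induced libraries lay just below the control libraries, but the difference of -0.06 did not pass the threshold (edgeR adjusted p = 0.311, 95% interval -0.16 to 0.04).

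Ratios within 3 pairs of enzymes were formed from FPKM, with the pairs chosen after their values were seen. Neu1 and Glb1, which form a complex with Ctsa, had a Neu1 to Glb1 ratio of 0.412, 0.381 and 0.404 in control libraries and 0.988, 0.935 and 0.886 in induced libraries. The Neu1 to Ctsa ratio went from 0.142 ± 0.00256 to 0.221 ± 0.00871. The ratio of Ctsl to Ctsb went from 0.348 ± 0.00362 to 0.625 ± 0.0301. In each pair the induced ratios lay above all control ratios. Each had an exact permutation p of 0.1, two-sided, the smallest p that 3 against 3 libraries allow, with an adjusted p over the 3 ratios of 0.1. With pairs chosen after their values were seen, these p-values are no evidence of a difference, and the ratios are a description.

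The 3 genes for cholesterol and neutral lipid all rose. Lipa, the acid lipase that frees cholesterol from its esters, rose by 0.60 (112 ± 2.39 to 171 ± 6.62 CPM). Npc2, which binds the freed cholesterol in the lumen, rose by 0.59 (564 ± 8.34 to 847 ± 70.1 CPM), with induced library 2 the lowest of the 3 at 767 CPM. Npc1, the membrane protein that exports it, rose by 0.44 (76.1 ± 2.18 to 103 ± 3.76 CPM).

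Psap, the precursor of the saposins that present lipids to their enzymes, was the most abundant lysosomal transcript per length in both groups (576 ± 10.6 FPKM in control and 821 ± 32.7 FPKM in induced cells). Its libraries held 1598, 1569.5 and 1621 CPM in control and 2339, 2167 and 2263 CPM in induced cells. The groups did not overlap, and Psap rose by 0.50 ± 0.04 (edgeR adjusted p = 3.94e-09). Grn, the precursor of the granulins, was at 539, 538 and 546 CPM in control and 625, 574 and 580.0 CPM in induced libraries. Its rise of 0.13 passed the test (edgeR adjusted p = 0.0146), but did not with library totals alone (0.0575) or without control replicate 1 (0.0525), control replicate 2 (0.0628) or induced replicate 1 (0.0638; range over its alternatives 5.65e-04 to 0.0638).

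Of the membrane proteins, 4 of 5 rose. Lamp1 and Lamp2, the main glycoproteins of the lysosomal membrane, rose by 0.63 (725 ± 4.61 to 1125 ± 21.2 CPM) and 0.59 (496 ± 6.85 to 746 ± 24.5 CPM). Scarb2, the sorting receptor of glucocerebrosidase, rose by 0.76 (254 ± 6.997 to 429 ± 10.3 CPM). Mcoln1, a calcium channel that acts in signals from the lysosome to TFEB, rose by 0.47 (49.6 ± 1.06 to 68.6 ± 1.77 CPM). Cln3, the membrane protein lost in juvenile Batten disease, was low, at 13.5, 14.8 and 15.3 CPM in control and 16.4, 15.04 and 15.9 CPM in induced libraries. Its groups overlapped and it did not pass the threshold (log2 fold change 0.12, edgeR adjusted p = 0.254, 95% interval -0.07 to 0.31).

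Levels between genes were compared in FPKM, which are per length. In control cells the order was led by Psap, Ctsz (334 ± 8.79 FPKM), Ctsb (309 ± 4.52 FPKM), Lamp1 (268 ± 2.26 FPKM), Ctsd (234 ± 1.73 FPKM) and Lgmn (163 ± 3.61 FPKM). In induced cells Ctsd stood in place 2 (547 ± 15.9 FPKM), followed by Ctsz (478 ± 28.9 FPKM), Lamp1 (419.9 ± 7.27 FPKM) and Ctsb (346 ± 8.62 FPKM), while Lgmn moved from place 6 to place 13 (123 ± 2.04 FPKM). At the lower end, Galc (1.47 ± 0.102 FPKM), Mitf (1.60 ± 0.172 FPKM) and Cln3 (2.49 ± 0.160 FPKM) were the rarest of the tested genes in control cells. In induced cells Galc (2.02 ± 0.0552 FPKM) and Mitf (1.66 ± 0.0776 FPKM) remained in the last places, joined by Ctsc (2.51 ± 0.303 FPKM). Some neighbours in the order were not separated by their spread, such as Grn (154 ± 1.59 FPKM) and Hexa (151 ± 3.69 FPKM) in control cells.

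**Figure D3:**
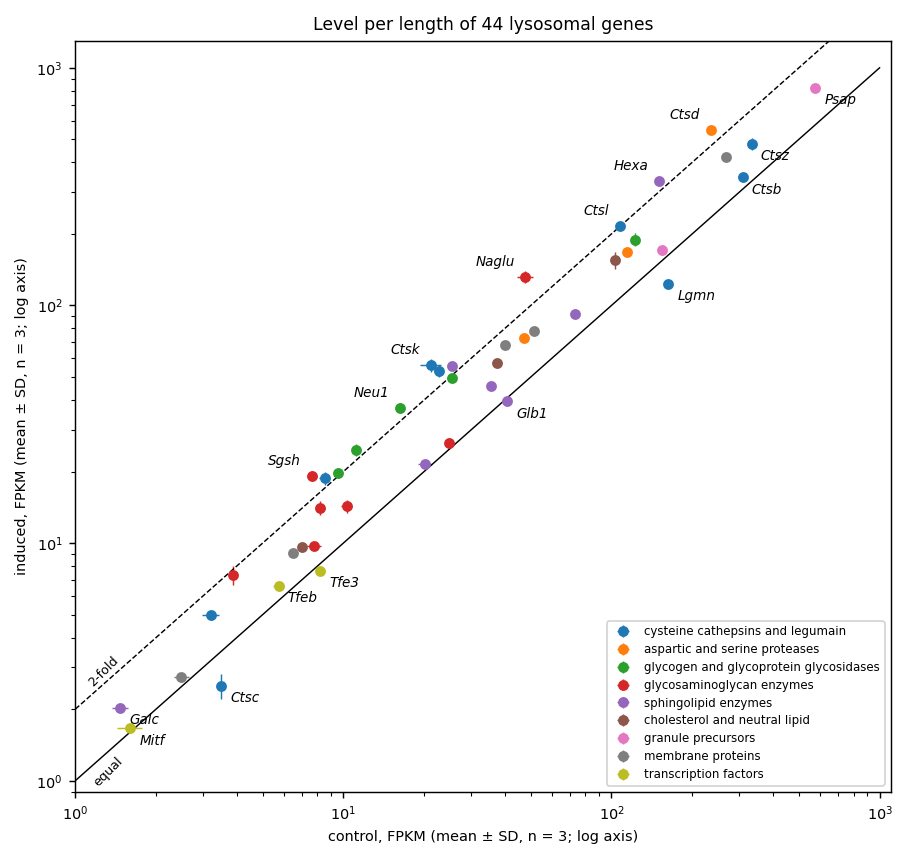
Level per length of the 44 tested lysosomal genes in control (x axis) and induced cells (y axis), both in FPKM on log axes, as means with SD bars over 3 libraries; colours mark the roles, the solid line equal levels and the dashed line a 2-fold higher level in induced cells. Psap is at the top right, Ctsd, Hexa, Ctsl and Naglu lie on or above the dashed line, and Lgmn, Ctsc, Glb1 and Tfe3 lie below the solid line.

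Further lysosomal genes were read from lists outside the 45. Of 117 such genes 109 were tested, 80 rose, 9 fell and 20 did not pass the threshold, with a median log2 fold change of 0.41. Of all genes tested 32.6% rose and 32.2% fell, and the counts of each list are to be read beside these shares. Those that fell in a list were few and are named after their values were seen. Among 24 tested hydrolases and activators 19 rose and 1 fell (median 0.54). The heparan sulfate endoglycosidase Hpse (31.5 to 92.8 CPM, log2 fold change 1.56) and the GM2 activator Gm2a that works with Hexa (128 to 274 CPM, log2 fold change 1.102) had the smallest p. The hyaluronidase Hyal2, the gene that fell, went from 54.2 to 24.4 CPM, log2 fold change -1.15. Among 25 lysosomal membrane proteins 16 rose and 2 fell (median 0.24). The chloride and proton exchanger Clcn7 (55.7 to 112 CPM, log2 fold change 1.00) and its subunit Ostm1 (26.9 to 76.2 CPM, log2 fold change 1.503) both rose, as did the haem transporter Slc48a1 (270.4 to 619 CPM, log2 fold change 1.20) and Laptm4b (85.02 to 144 CPM, log2 fold change 0.76), while the polyamine transporter Atp13a2 (50.7 to 42.5 CPM, log2 fold change -0.25) and the cation channel Tpcn2 (16.4 to 13.5 CPM, log2 fold change -0.28) fell.

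Subunits of the V-ATPase, which acidifies the lumen the 45 gene products work in, were also mostly higher: 17 of 18 tested rose and 1 fell, with a median of 0.68. The accessory subunits Atp6ap1 (223 to 432 CPM, log2 fold change 0.95) and Atp6ap2 (76.7 to 149 CPM, log2 fold change 0.96), the membrane subunit Atp6v0a1 (104 to 201 CPM, log2 fold change 0.94) and the catalytic subunit Atp6v1a (169 to 314 CPM, log2 fold change 0.89) had the smallest p. The extremes of the list, named after their values were seen, were both scarce: Atp6v0e2 rose by 2.30 (1.85 to 9.14 CPM) and Atp6v1g2 fell by 1.35 on the log2 scale (1.40 to 0.544 CPM). Of 13 tested genes for tagging with mannose 6-phosphate or for sorting, 9 rose, against 32.6% of all genes tested, with a median of 0.18. Only 1, the sorting receptor Sorl1 (124 to 106 CPM, log2 fold change -0.23), fell. Gnptg, a subunit of the tagging enzyme (23.5 to 47.5 CPM, log2 fold change 1.02), the sorting receptor Sort1 (68.1 to 116 CPM, log2 fold change 0.77), the receptor M6pr (134 to 168 CPM, log2 fold change 0.32) and the retromer subunit Vps26a (107 to 129 CPM, log2 fold change 0.28) rose. The larger mannose 6-phosphate receptor, Igf2r, was named after its value was seen and did not pass the threshold (216 to 208 CPM, a log2 difference of -0.05, adjusted p = 0.350 by edgeR).

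In the nutrient-sensing machinery upstream of TFEB, 16 of 24 tested genes rose and 3 fell (median 0.30), against 32.6% and 32.2% of all genes tested. Rragd, the GTPase that directs TFEB to the kinase mTORC1 (19.7 to 42.5 CPM, log2 fold change 1.11), and the Ragulator subunit Lamtor3 (51.2 to 81.1 CPM, log2 fold change 0.66) rose. The catalytic subunits of AMP-activated kinase went in opposite directions: Prkaa2 rose (6.54 to 18.4 CPM, log2 fold change 1.49) and Prkaa1 fell (69.1 to 42.99 CPM, log2 fold change -0.68). Tsc2, which restrains mTORC1 (96.3 to 76.9 CPM, log2 fold change -0.32), and the calcineurin subunit Ppp3cb (58.3 to 48.3 CPM, log2 fold change -0.27) also fell. Inhibitors of the cathepsins also changed. Cst3, the secreted cystatin C, was at 1003, 1009 and 1054 CPM in control libraries and 4349.8, 3637 and 4557 CPM in induced libraries. It rose by 2.03 (edgeR adjusted p = 3.64e-15), a larger rise than that of any of the 45 lysosomal genes. The cytosolic inhibitor Cstb (206 to 269.7 CPM, log2 fold change 0.39) and the scarce Cst6 (1.06 to 2.60 CPM, log2 fold change 1.29) also rose, and the serpin Serpina3g (122 to 32.5 CPM, log2 fold change -1.91) fell.

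**Figure D4:**
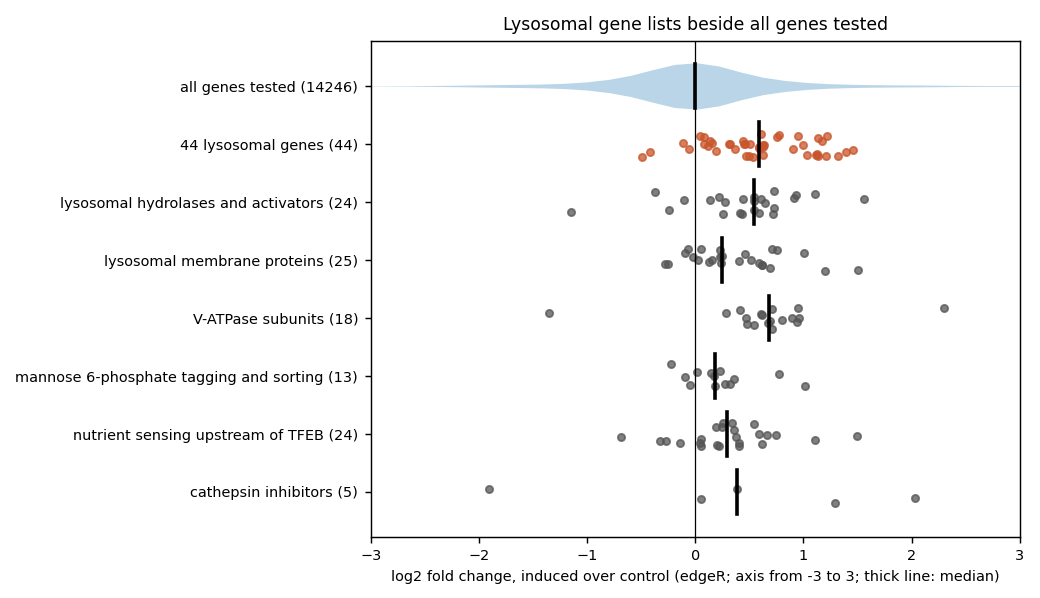
Log2 fold change (x axis, induced over control) of all 14246 tested genes as a density and of each tested gene of 7 lysosomal lists as a point (y axis, number tested in brackets); thick lines are medians. The medians are 0.59 for the 44 lysosomal genes, 0.68 for V-ATPase subunits and 0.18 for mannose 6-phosphate tagging and sorting, beside -0.01 for all tested genes.

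Macrophages, osteoclasts and melanocytes are rich in lysosomes or related organelles, and their markers were read beside the lysosomal genes. Of 15 macrophage markers 7 were at 0 in all 6 libraries (Ptprc, Adgre1, Tyrobp, Itgam, C1qa, C1qb and C1qc), and 6 were tested, of which 4 rose and 1 fell. The 15 macrophage markers summed to 71.5 to 80.0 CPM in control and 107 to 118 CPM in induced libraries. Cd14 was the largest part of that sum in both groups (44.7 and 40.7 CPM) and did not pass the threshold (edgeR adjusted p = 0.0682). Cd68, a lysosomal glycoprotein of macrophages, went from 1.95 to 29.2 CPM, Mpeg1 from 1.94 to 13.9 CPM, Lyz2 from 3.76 to 14.6 CPM and Fcer1g from 0.0338 to 3.29 CPM, while Csf1r, the receptor that keeps macrophages alive, fell from 22.6 to 10.9 CPM. Of 7 osteoclast markers Calcr and Dcstamp were at 0 in all libraries, and Acp5 rose (0.590 to 1.25 CPM, edgeR adjusted p = 0.0194). Tnfrsf11a was lower in all induced libraries (1.40 to 1.02 CPM) but did not pass the threshold (edgeR adjusted p = 0.181). Atp6v0d2 (0.0504 to 0.404 CPM), Oscar (0.0505 to 0.175 CPM) and Ocstamp (0.202 to 0.0354 CPM) were too low to test. Of these, Atp6v0d2 and Oscar did not overlap between groups, and Ocstamp did. The 7 osteoclast markers summed to 2.19 to 2.48 CPM in control and 2.41 to 3.45 CPM in induced libraries. Of 6 melanocyte markers Tyr, Dct and Sox10 were at 0, and the sum of 0.917 to 1.42 CPM in control and 7.52 to 9.64 CPM in induced libraries came mostly from Mlana (0.220 to 7.12 CPM). The cardiomyocyte markers summed to 13.2 to 16.6 CPM in control and 63.9 to 67.9 CPM in induced libraries, of which Tnnt2 rose from 13.1 to 58.2 CPM and Des from 0.235 to 4.97 CPM. Tnni3 did not pass the threshold (1.52 to 2.02 CPM, edgeR adjusted p = 0.144). Ryr2 was too low to test (0.0167 to 0.509 CPM), and Myh6, Myh7, Actc1, Nppa and Pln were at or under 0.0706 CPM on average in induced cells. The part of these changes in the levels of the lysosomal genes was not tested.

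By position, the 45 genes were spread over the genome, and 3 pairs lay within 1 Mb of each other. On chromosome 11 Gaa (chr11:119267887-119285454) and Sgsh (chr11:119343425-119355536) lie 58 kb apart, and both rose, by 0.62 and 1.32. On chromosome 7 Tpp1 (chr7:105744811-105752235) and Smpd1 (chr7:105554360-105558389) lie 186 kb apart, and both rose, by 0.62 and 1.12. On chromosome 3 Ctsk (chr3:95499256-95509362) rose while its neighbour Ctss (chr3:95526786-95556403) lay 17.4 kb away and was at or under the limit that a count of 0 allows. Coordinates are those of the deposited table, and 43 of the 45 genes have the same start and end in GENCODE M21 (GRCm38), with Ctsf and Npc1 the exceptions.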

How the data were processed

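RNA was sequenced from 3 control and 3 induced samples. The labels speak of separate samples but not of separate cultures, so p-values measure the spread between these samples only, which may be technical. The authors deposited 1 table of unnormalized read counts for each gene in each library, and of FPKM, which the authors had scaled to gene length and depth. The submitters' processing notes list HISAT2 2.0.5, featureCounts 1.5.0-p3, DESeq2 1.16.1 and the build mm10; the strand setting of the counting was not given in the sources used here. The table's fold changes and p-values and the deposited Gene Ontology tables hold the authors' own comparisons and were not used.

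The counts went into edgeR 4.0.16 (R 4.3.3) as deposited: genes kept by filterByExpr (minimum count 10, minimum total 15), TMM scaling, two-sided quasi-likelihood test over all 14246 genes, Benjamini-Hochberg adjustment, threshold 0.05, prior count 0.125. The interval of a log2 fold change is its 95% confidence interval. Within each group, any 2 libraries differed beyond sampling noise (chi-square from 2.56 to 8.91 for each degree of freedom), so all 6 were kept as separate. Limits for a count of 0 take 3 counts and hold for counting error alone, as the reads carry no molecular identifiers. Groups came from the labels. As alternatives, the test was run with DESeq2 1.42.0 and with limma 3.58.1 on log2(FPKM + 0.1) and log2(FPKM + 1). The scaling was replaced by median-ratio size factors or by totals only, and the filter was dropped or raised to a mean count of 10 with 1 CPM in 3 libraries. The fit was also repeated with the replicate number as a block, at a threshold of 0.01, and without each library in turn. The tests were tested on simulated counts in which a small part of the genes changed, as many up as down. In these data 64.8% of tested genes changed, so that simulation does not check the calls at such a share. The 45 genes and the other lists were chosen with earlier results of these data known, so no test is given over a list. Per-library values were given for the transcription factors, the 12 largest changes among genes past the threshold and the 3 most abundant genes by FPKM, and for further genes that fell, did not pass the threshold or changed little; of each further list up to 4 genes with the smallest p were named, and some genes of these lists are not reported here. Of the 45 genes, Ctsb, Ctsh, Galns, Asah1 and Npc1 had no entry in the promoter table used.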

Additional observations from a re-analysis of the deposited data

How the results depend on the processing

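Of the 45 genes, 38 changed, and this number lay between 36 and 38 under every alternative run, with 34 to 36 genes higher and 2 or 3 lower. The median log2 fold change lay between 0.55 and 0.60, and the number of all genes changed between 7783 and 9765 (9225 as reported). Leaving out 1 library at a time gave 8514 to 9348 genes changed in all, 36 to 38 of the lysosomal genes, and a median of 0.57 to 0.60. Of 660 values of single genes under the alternatives, 651 kept their side of the threshold. Of values past the threshold in the main or the alternative fit, 0 turned direction. A turn of direction in a value that passed in neither fit was not counted. The other 9 were in 3 genes: Grn and Tfeb lost their call in 8, at an adjusted p of 0.01 among them, and Tfe3 passed the threshold with library totals alone (log2 fold change -0.15, edgeR adjusted p = 0.0198; range over its alternatives 0.0198 to 0.278). The median over all genes tested went from -0.01 to -0.04 when libraries were scaled by their totals only. The ratio of the summed levels was 1.45 to 1.54 under the 3 alternatives chosen after seeing the data.

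No pairing of the samples by replicate number was seen. A control and an induced library with the same number had correlations of -0.03, -0.03 and 0.03 across genes after each group's mean was taken off. Libraries with different numbers had -0.07 to 0.08. The labels do not say whether a number marks a shared culture, and these values cannot settle it. With the replicate block 9063 genes changed in all and the same 38 lysosomal genes, and the numbers of genes changed in the other lists were 20 for hydrolases and activators, 18 for membrane proteins, 18 for V-ATPase subunits, 9 for tagging and sorting, 19 for nutrient sensing and 4 for cathepsin inhibitors.

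Depth limits Ctss, which was too low to test, and widens the interval of scarce genes such as Mitf (-0.20 to 0.28 on the log2 scale, against a median SE of 0.05 over the tested lysosomal genes). The FPKM of Ctsf, Lipa and Npc1 rest on gene lengths that differ from the summed exons of the annotation used for overlaps. Ctsd and Ctsl share exon bases with Gm49369 and Gm49230 on the same strand. How reads in shared bases were counted is not known, so the levels of Ctsd and Ctsl may be too low.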
